A study of Mus musculus with 2 samples.

Results

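The actin cytoskeleton and non-muscle myosin genes were followed in mouse macrophages that carry or lack Trem2, a lipid-sensing receptor of these cells. They were chosen by name, as the Arp2/3 subunits and actin-related proteins, actinins, cofilins, coronins, myosin heavy and light chains, filamins, talins, capping proteins, profilins, diaphanous formins and thymosins, together with Actb, Actg1, Vcl, Dstn, Ezr, Msn, Rdx, Lcp1, Gsn, Capg, Was and Wasl. The smooth muscle light chain Myl9 was left out. Of the 11349 listed genes 73 met this rule, and 69 of them averaged at least 1 FPKM over the libraries. FPKM is a fragment count scaled for gene length and library size.

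The cells were primary myeloid cells from the abdominal cavity, wild type (WT, labelled C57) or TREM-2-/-, and cells of both genotypes were kept with TGF-β1, a growth factor of wound repair and scarring, for 24 h. Each group is 1 library, so no difference has a replicate check, no test was possible, and genes are picked out by size alone. The series set out to find genes that differ by TREM-2 genotype, in a study of macrophage exosomes and kidney fibrosis. Sex, age, the number of animals and how the knockout was made are not stated in the labels, and the genotype field of the knockout sample reads knockdown.

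Actin monomers assemble into filaments that push the cell membrane forward, shape phagocytic cups and carry tension. The Arp2/3 complex starts branches on existing filaments when WASP-family proteins switch it on, formins extend unbranched filaments, and profilin and the thymosins hold the pool of free monomers. Cofilin and gelsolin cut old filaments, capping proteins block their ends, filamin, actinin and plastin bind filaments to each other, and myosin motors pull on them. Macrophages depend on this machinery to crawl, to engulf particles and to spread.

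The WT library held an estimated 13.5 M fragments, and the knockout library 12.4 M. Trem2 itself was at 135 FPKM in WT against 13.7 FPKM in the knockout, 10.1% of the WT value. Of 14 macrophage markers 12 were listed, with a summed level of 9659 FPKM in WT against 12064 FPKM in the knockout, a sum held mostly by Lyz2. Of these 12 markers, 4 had knockout values lower by 2-fold or more (Gata6, Fcgr1, Itgam and Icam2) and 0 higher. Of all genes averaging at least 1 FPKM, 13.7% were lower by that much and 3.48% higher. The median log2 fold change of the 12 markers was -0.72. The other 8 were within 2-fold on the scale with 1 FPKM added. Of these, Mertk, Spi1 and Cd14 were lower in the knockout, and Lyz2, Cd68, Adgre1, Csf1r and Ptprc were higher. Across the 9962 genes that averaged at least 1 FPKM, the median log2 fold change, log2((knockout FPKM + 1)/(WT FPKM + 1)), was -0.31. Values described as relative to all genes have this median subtracted.

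Actb, the most abundant actin gene in WT, was at 664 FPKM in WT against 196 FPKM in the knockout, and the actin cross-linker Flna, the coronin Coro1a, the class I myosin Myo1f and the profilin Pfn1 were likewise lower in the knockout by at least 2-fold. Myo1g, Was, Gsn, Arpc5 and the low gene Actn3 completed the 10 of 69 members that were at least 2-fold lower, and 0 were at least 2-fold higher. The share of all genes that was at least 2-fold lower was 13.7%, so the members' count is close to the background, and 3.48% of all genes were at least 2-fold higher. The members' median log2 fold change was -0.35, which is -0.05 relative to all genes. Relative to all genes, 6 members were at least 2-fold lower, where all genes gave 6.57%, and 1 was higher, where all genes gave 7.66%. Summed over the 73 members, the set made up 2.13% of the listed FPKM in WT and 1.44% in the knockout.

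Abundant members had lower fold changes than the bulk of equally abundant genes. At a mean of 50 FPKM or more, a bound chosen after the values were seen, 26 members had a median log2 fold change of -0.51, while the 950 genes of that level had a median of 0.11. Relative to all genes, 3 of the 26 were at least 2-fold lower, where 4.63% of the 950 were, and 0 were higher, where 20.5% were. As deposited, 4 of 26 members were at least 2-fold lower, where 7.89% of all genes of that level were, and 0 were at least 2-fold higher, where 8% were. In all, 21 of the 26 abundant members had a lower value in the knockout, beside 414 of the 950 genes, and relative to all genes 17 of 26 did, beside 264 of 950. The bound is on the mean of both libraries, for members and all genes alike. Myo1f (91.4 and 29.9 FPKM), Capza2, Myo1e, Myh9 and Ezr reached 50 FPKM in WT only, and all are among the 21 lower. Myo1f is also among the 4 and the 3 at least 2-fold lower, so these counts rest partly on high WT values. Over all genes the median log2 fold change climbed with expression level, from -0.39 at 1 to 5 FPKM to 0.31 at 100 FPKM or more, while the 15 members at 100 FPKM or more stood at -0.35. With the trend against expression level removed, 16 of 69 members were at least 2-fold lower, 23.2%, beside 13.4% of all genes.

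**Figure D1:**
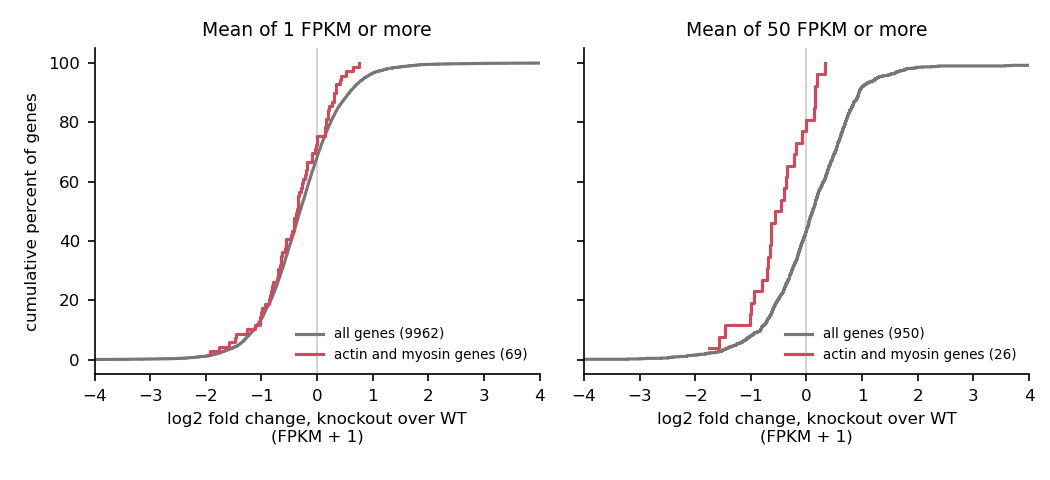
Cumulative percent of genes (vertical axis) by log2 fold change of the knockout library over WT on FPKM + 1 (horizontal axis), for genes averaging 1 FPKM or above (left) and 50 FPKM or more (right), with all genes in grey and the actin and myosin genes in red. On the left the curves lie close together (medians -0.35 and -0.31), and on the right the red curve lies to the left of the grey one (medians -0.51 and 0.11).

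Of the cytoplasmic actins, Actb (ENSMUSG00000029580.14, chromosome 5 from 142903115 to 142906754, mm10, - strand) was 3.39-fold lower in the knockout, with a counting interval of 3.30 to 3.48. Intervals of single genes are exact Clopper-Pearson 95% intervals from estimated fragments, and cover counting error only. Actg1, which encodes an actin differing from that of Actb by a few residues at the start of the protein, was at 304 FPKM in WT against 238 FPKM in the knockout. The ratio of Actb to Actg1 was thus 2.19 in WT and 0.824 in the knockout, a 2.66-fold difference (interval 2.55 to 2.77, a normal approximation on the log ratio) that does not depend on the scaling between libraries. Actb is the more abundant of the pair in WT and the less abundant in the knockout. Their sum was 968 and 434 FPKM. How reads shared by these near-identical coding sequences were assigned is not stated, and its part in these values was not tested. Acta2, the smooth muscle actin, which was left to the contractile genes by the rule, was at 6.67 and 279 FPKM, above Actb in the knockout library. With Acta2 added, the summed actin level was 975 and 713 FPKM.

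The Arp2/3 subunits ranged from Arpc5, about 2-fold lower in the knockout, to Arpc1a, 1.36-fold higher. The 9 measured genes of the complex had a median log2 fold change of -0.37, with 1 at least 2-fold lower and 0 higher, beside 13.7% and 3.48% of all genes. In groups as small as these roles, such counts are a description only. Arpc2, a core subunit, was at 313 FPKM in WT against 312 FPKM in the knockout, and Arpc3 at 114 and 108 FPKM. Arpc5, the smallest subunit, was at 124 and 60.5 FPKM, 2.05-fold lower (interval 1.93 to 2.17), and the actin-like Actr2 at 107 and 52.8 FPKM, which is just under 2-fold on the scale with 1 FPKM added. The ratio of Arpc2 to Actr2 was 2.93 in WT and 5.92 in the knockout. Actr3, the other actin-like subunit, was at 109 and 69.8 FPKM, and Arpc4 at 54.6 and 44.5 FPKM. Of the alternative forms, Arpc1b was at 85.7 and 66.1 FPKM against 33.1 and 45.004 FPKM for Arpc1a, and Arpc5l at 23.6 and 17.6 FPKM. The ratio of Arpc1b, the form enriched in blood cells, to Arpc1a was 2.59 in WT and 1.47 in the knockout.

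Upstream of the complex, Was, the WASP protein of blood cells, was at 24.5 FPKM in WT against 10.8 FPKM in the knockout, a 2.27-fold lower value (interval 1.99 to 2.60). Its widely expressed relative Wasl was at 5.33 and 6.77 FPKM, and the ratio of Was to Wasl was 4.5997 in WT and 1.59 in the knockout. The formin Diaph1 was at 30.6 and 22.6 FPKM and Diaph2 at 1.98 and 2.31 FPKM. Actin-related proteins outside the complex, which serve the dynactin motor adaptor or chromatin remodelling, stayed within 2-fold in all 6 cases on the scale with 1 FPKM added. So did 8251 of 9962 genes. By the plain ratio Actr5, at 2.22 and 0.772 FPKM, was 2.88-fold lower (interval 2.001 to 4.21). Of the others Actr1a and Actr1b of dynactin were at 51.4 and 42.5 FPKM and, for the second, 25.9 and 30.1 FPKM.

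Of the 6 measured genes of the monomer pool, 1 was at least 2-fold lower and 0 were higher, beside 13.7% and 3.48% of all genes. Pfn1, the main profilin, which loads monomers onto growing ends (ENSMUSG00000018293.4, chromosome 11 from 70651850 to 70654644, mm10, - strand), was at 214 FPKM in WT against 76.7 FPKM in the knockout, a 2.79-fold lower value (interval 2.66 to 2.93). The thymosins, which sequester monomers, were the highest members in the knockout library. Tmsb10 was at 623 and 713 FPKM and Tmsb4x at 538 and 601 FPKM, each within 1.5-fold. The ratio of Tmsb4x to Tmsb10 was 0.865 and 0.843 (interval of the difference 0.988 to 1.07), while that of Pfn1 to Tmsb4x was 0.398 in WT and 0.128 in the knockout. Pfn2, a profilin of the nervous system, was at 2.53 and 3.46 FPKM.

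Among filament-cutting and capping proteins, Gsn, gelsolin, was at 61.9 FPKM in WT against 29.96 FPKM in the knockout, a 2.07-fold lower value (interval 1.93 to 2.22). Capg, a gelsolin relative of macrophages that caps but does not cut, was at 359 and 186 FPKM. The cofilins differed in direction. Cfl1, the form of non-muscle cells, was at 552 and 315 FPKM, Cfl2, the muscle form, at 12.9 and 20.9 FPKM, and the related Dstn, destrin, at 166 and 211 FPKM. The ratio of Cfl1 to Cfl2 was therefore 42.8 in WT and 15.1 in the knockout, and that of Cfl1 to Dstn 3.32 and 1.49. The capping protein subunits Capzb (120 and 134 FPKM) and Capza1 (50.04 and 46.9 FPKM) lay close together between libraries, and Capza2 was at 63.7 and 38.8 FPKM.

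Flna, filamin A, which links filaments to each other and to integrins (ENSMUSG00000031328.15, chromosome X from 74223461 to 74249820, mm10, - strand), had the lowest fold change of all members with 1 FPKM added. It was at 54.6 FPKM in WT against 13.4 FPKM in the knockout, a 4.09-fold lower value (interval 3.87 to 4.32). Lcp1, the plastin of blood cells, was at 154 and 93.5 FPKM, Actn1 at 25.7 and 20.2 FPKM and Actn4 at 36.1 and 41.4 FPKM. Actn3, an actinin of fast skeletal muscle, was at 1.9998 and 0.0871 FPKM, and passed the filter on low values through the WT library alone. Its plain ratio, 22.95-fold lower (interval 7.72 to 109), was lower than that of Flna. Muscle myosin heavy chains were not among the listed genes.

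Coronins, which bind filaments and the Arp2/3 complex, had 1 of 5 members at least 2-fold lower, beside 13.7% of all genes. Coro1a, the coronin of blood cells (ENSMUSG00000030707.15, chromosome 7 from 126699773 to 126707787, mm10, - strand), was at 58.3 FPKM in WT against 14.7 FPKM in the knockout, a 3.97-fold lower value (interval 3.604 to 4.38). The widely expressed Coro1b was at 99.3 and 63.1 FPKM and Coro1c at 38.1 and 20.9 FPKM. Of the proteins that tie actin to the membrane and to integrins, 0 of 5 passed 2-fold, beside 13.7% lower and 3.48% higher of all genes. Msn, moesin, the main such linker of leukocytes, was at 170.4 and 107 FPKM, Ezr at 55.8 and 48.9 FPKM and Rdx at 29.1 and 25.3 FPKM. Tln1, talin, which activates integrins, was at 54.9 and 43.5 FPKM, and Vcl, vinculin, which binds talin under tension, at 16.6 and 10.9 FPKM. Flna, which also binds integrins, therefore stood 4.09-fold lower where Tln1 was 1.26-fold lower (interval 1.22 to 1.31).

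Non-muscle myosin II genes stayed within 2-fold in all 6 cases on the scale with 1 FPKM added, beside 8251 of 9962 genes. By the plain ratio the light chain gene Myl6b, at 2.80 and 1.13 FPKM, was 2.47-fold lower (interval 1.55 to 4.04). The heavy chain Myh9 was at 61.2 FPKM in WT against 45.8 FPKM in the knockout, and Myh10, the minor heavy chain here, at 1.79 and 3.02 FPKM. The essential light chain Myl6 was at 171.8 and 116 FPKM, and the regulatory light chains Myl12a and Myl12b at 104.7 and 89.7 FPKM and, for the second, 175 and 193 FPKM. Myl12a and Myl12b are adjacent, near-identical genes whose listed positions do not overlap. Each shares exon sequence with another annotated entry that bears the name Myl12b, so reads can be split between entries. The rule left out Myl9, the smooth muscle light chain, which was at 2.65 and 35.1 FPKM.

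Of the unconventional myosins, which carry cargo and tether membranes, 2 of 11 were at least 2-fold lower with 1 FPKM added, beside 13.7% of all genes. The low genes Myo7a and Myo9a were also at least 2-fold lower by the plain ratio. Myo1f, a long-tailed class I myosin of leukocytes (ENSMUSG00000024300.16, chromosome 17 from 33555719 to 33607764, mm10, + strand), was at 91.4 FPKM in WT against 29.9 FPKM in the knockout, a 3.06-fold lower value (interval 2.90 to 3.23). Myo1g, a short-tailed myosin of blood cells, was at 11.1 and 4.03 FPKM. Myo1e, the widely expressed relative of Myo1f, was at 61.2 and 44.5 FPKM, so Myo1f exceeded Myo1e in WT only, with ratios of 1.49 and 0.671. Myo1c was at 25.05 and 24.4 FPKM and Myo9b at 18.8 and 13.4 FPKM. Myo5a, the vesicle carrier, had the highest fold change of all members at 20.9 and 36.2 FPKM, 1.73-fold higher (interval 1.66 to 1.80), and was the 1 member past 2-fold higher relative to all genes.

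The next highest members at a mean of 10 FPKM or more were Cfl2, 1.62-fold higher in the knockout (interval 1.45 to 1.80), Arpc1a at 1.36-fold (1.26 to 1.47) and Dstn at 1.27-fold (1.22 to 1.32). Actr1b followed at 1.16-fold (1.08 to 1.25), Actn4 at 1.15-fold (1.09 to 1.21), Tmsb10 at 1.14-fold (1.11 to 1.18) and Capzb at 1.12-fold (1.08 to 1.16). These intervals take the deposited scaling as exact, and the signs of Dstn, Tmsb10 and Capzb, with that of Tmsb4x, turned under other settings, while those of Myo5a, Cfl2, Arpc1a, Actr1b and Actn4 did not. The other 20 members averaging 1 FPKM or above had log2 fold changes from -0.98 to 0.53. Of these, 4, namely Actr5, Myo9a, Tmsb15b1 and Tmsb15b2, were below 1 FPKM in 1 library. The 4 members under the filter were Diaph3, Myo1d, Myo19 and Tmsb15l, and the Tmsb15 genes overlap each other on the X chromosome, so their values are uncertain.

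**Figure D2:**
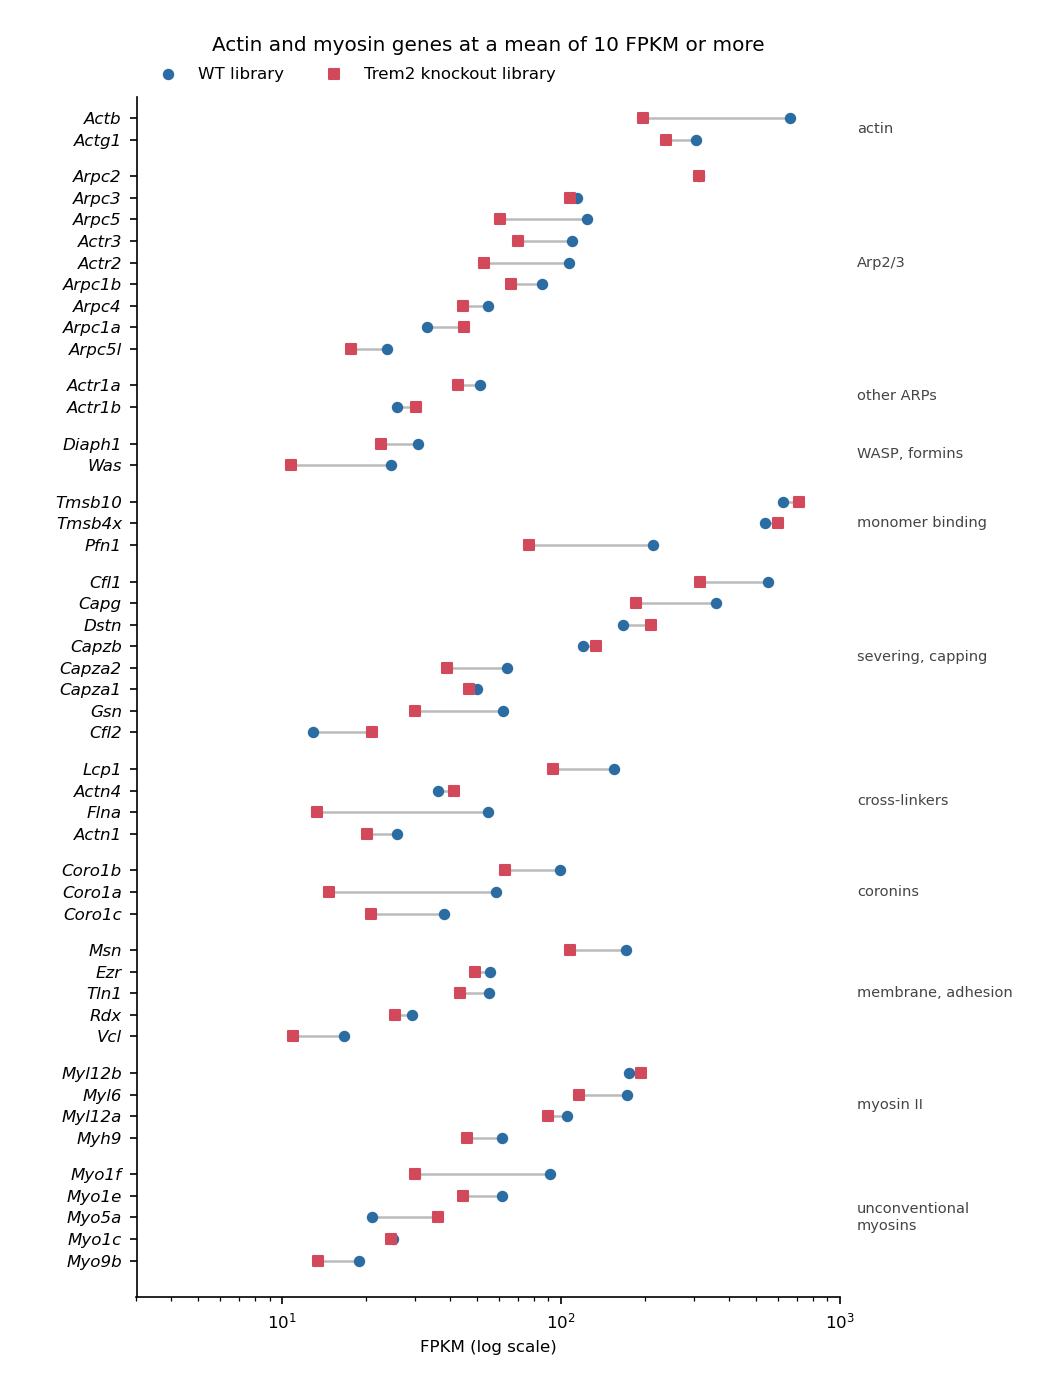
FPKM on a log scale (horizontal axis) in the WT library (blue circles) and the Trem2 knockout library (red squares) for the 47 actin and myosin genes averaging 10 FPKM or above, by role, with a grey line joining the libraries. The longest lines, with the knockout on the left, belong to Flna, Coro1a, Actb, Myo1f and Pfn1, and for Arpc2 (313 and 312 FPKM) the square covers the circle.

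Ratios between related genes within a library do not depend on the scaling, and were compared for 19 pairs, chosen after the values were seen. In 8 of 19 pairs the ratio differed 2-fold or more between the libraries, and in 7 of 19 by less than 1.5-fold. In 7 of those 8 pairs the gene with the higher value in WT stood lower against its relative in the knockout, and over all pairs this was so in 13 of 19. Which gene is the higher one was read from the same WT library, so this count is no independent measure. Cfl1, Msn and Coro1b each stand in more than 1 pair, Cfl1 with its pairs among the 7, so the pairs are not all separate. The exception among the 8 was Coro1a against Coro1b. Of the 15 pairs with a counting interval, 1 had an interval that held no difference, Tmsb4x against Tmsb10.

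**Figure D3:**
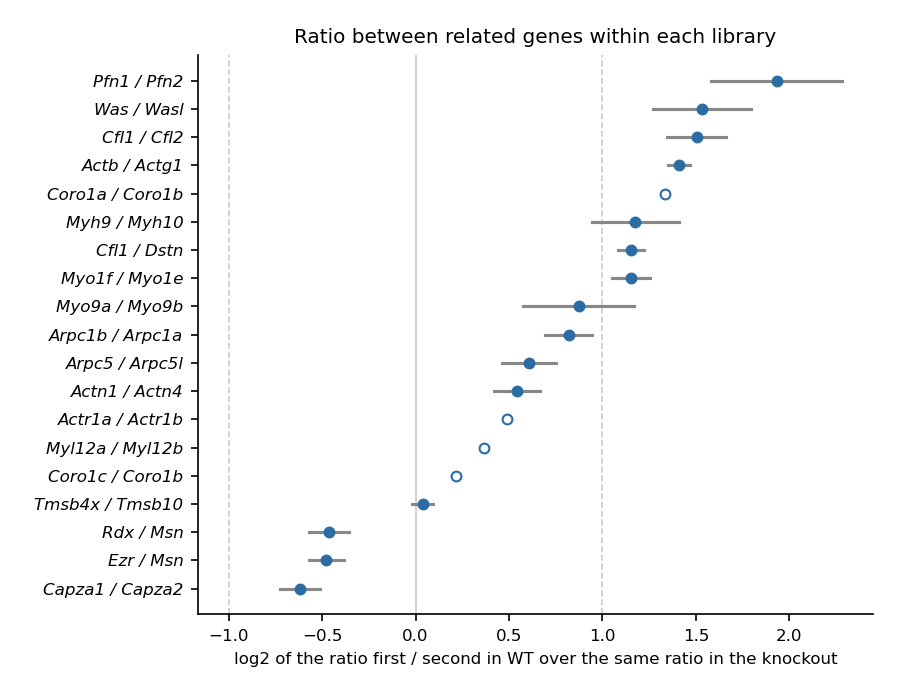
Log2 of the ratio of the first gene to the second in WT over the same ratio in the knockout (horizontal axis) for 19 pairs of related genes, with grey bars for counting intervals, which are left out for open circles, and dashed lines at 2-fold. Pfn1 against Pfn2 lies furthest to the right (84.6 in WT and 22.2 in the knockout) and Tmsb4x against Tmsb10 lies next to zero.

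Members known as restricted to blood cells, namely Coro1a, Myo1f, Myo1g, Was and Lcp1, were at least 2-fold lower in 4 of 5 cases, beside 13.7% of all genes, and relative to all genes in 2 of 5, beside 6.57%, with a summed level of 339 FPKM in WT against 153 FPKM in the knockout. This list was drawn up after the values were seen. It leaves out Arpc1b, Msn and Capg, which are tied above to blood cells, leukocytes and macrophages. Arpc1b (85.7 and 66.1 FPKM), Msn (170.4 and 107 FPKM) and Capg (359 and 186 FPKM) were lower in the knockout but within 2-fold. The count of 4 of 5 therefore depends on which members were listed. In bulk RNA, fewer cells of a type and less RNA per cell cannot be told apart. Of 14 partners also known from blood cells, a list drawn up in the same way, 13 had a mean of 1 FPKM or more and 8 were at least 2-fold lower (5 relative to all genes), among them the guanine nucleotide exchange proteins Def6 (10.4 and 2.35 FPKM) and Dock2 (15.8 and 4.76 FPKM). Others went against this, since Rac2, the Rac GTPase of blood cells, was at 87.2 and 115 FPKM and Nckap1l, of the WAVE complex, at 76.5 and 81.7 FPKM. Macrophage markers went both ways too, with 7 of 12 lower in the knockout and 5 higher. Of the 12, 4 were at least 2-fold lower, beside 13.7% of all genes, and 2 relative to all genes, beside 6.57%. The 4 were Gata6 (14.0005 and 2.67 FPKM), Fcgr1 (55.9 and 14.4 FPKM), Itgam (92.7 and 41.2 FPKM) and Icam2 (2.08 and 0.398 FPKM). Icam2 passed the filter on low values through the WT library alone. Mertk (16.6 and 8.18 FPKM), Spi1 (70.4 and 39.7 FPKM) and Cd14 (77.8 and 50.1 FPKM) were lower but within 2-fold with 1 FPKM added. Lyz2 (7962 and 10170 FPKM) and Ptprc (19.1 and 22.9 FPKM) were among the 5 higher.

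The other genes of actin regulation that the rule does not hold were taken as lists by role, with 94 genes listed. All 14 blood-cell partners above are among them, so the counts below include theirs. Of 89 averaging 1 FPKM or above, 27 were at least 2-fold lower and 1 higher, beside 13.7% and 3.48% of all genes, and their median log2 fold change was -0.68. Relative to all genes 13 were lower and 3 higher, beside 6.57% and 7.66% of all genes. Tropomyosins and filament side-binding proteins had 8 of 20 lower, led by Marcks (43.0 and 11.1 FPKM), a membrane-bound actin organiser, then Dbnl (48.4 and 17.8 FPKM), Cotl1 (218 and 83.4 FPKM) and Add3 (13.7 and 4.67 FPKM). The 1 higher gene was Tpm1, a tropomyosin, at 23.6 and 50.1 FPKM.

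Activators of small GTPases had 4 of 11 lower, Def6, Dock8 (8.58 and 2.28 FPKM), Dock2 and Arhgef1 (14.5 and 6.34 FPKM). The share of all genes to set beside this and the next counts is 13.7%. Of the GTPases and their inhibitors 2 of 10 were lower, Arhgdib (191 and 66.4 FPKM) and Rhob (64.0 and 28.3 FPKM), while Rhoc was at 91.0 and 154 FPKM and Rhog at 92.9 and 156 FPKM. WAVE and WASP partners had 4 of 12 lower, Wipf1, the WASP chaperone (19.5 and 7.08 FPKM), Abi3 (9.76 and 3.33 FPKM), Cyfip1 (17.9 and 6.68 FPKM) and Cttn (11.9 and 5.05 FPKM). Adhesion adaptors had 4 of 9 lower, Lpxn (66.7 and 23.9 FPKM), Parvg (17.9 and 6.42 FPKM), Zyx (20.5 and 7.75 FPKM) and Fermt3 (73.1 and 30.1 FPKM). Formins outside the rule and Ena/VASP proteins had 2 of 7 lower, Inf2 (12.6 and 3.76 FPKM) and Fmnl1 (14.7 and 6.22 FPKM), followed by Evl (43.9 and 23.3 FPKM) and Vasp (35.4 and 20.1 FPKM). Monomer turnover factors had 2 of 6 lower, Twf1 (44.5 and 20.9 FPKM) and Twf2 (11.2 and 5.06 FPKM), then Wdr1 (41.9 and 23.0 FPKM) and Gmfb (27.0 and 16.3 FPKM). The list of kinases, phosphatases and associated proteins of actin regulation had 0 of 11 past 2-fold, with Ilk (38.7 and 22.6 FPKM), Rock1 (18.4 and 11.7 FPKM), Pak2 (21.2 and 14.8 FPKM) and Limk1 (2.52 and 1.61 FPKM) furthest apart.

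Many actin genes are targets of serum response factor, which binds the CArG box with its cofactor MRTF when free actin monomers run low. Srf was at 7.94 FPKM in WT against 4.54 FPKM in the knockout, and the cofactor genes Mkl1 and Mkl2 at 9.26 and 3.72 FPKM and, for the second, 4.34 and 2.33 FPKM. Of these 3 genes 1, Mkl1, was at least 2-fold lower. Textbook targets, which include members of the set, went in opposite directions. Of 16 measured, 5 were at least 2-fold lower and 5 higher, beside 13.7% and 3.48% of all genes. The lower ones were Flna, Actb, Zyx and the immediate early genes Fos (18.7 and 1.38 FPKM) and Egr1 (4.70 and 0.522 FPKM). The higher ones were Tagln (7.91 and 388 FPKM), Acta2, Cnn1 (0.0271 and 7.71 FPKM), Cyr61 (7.60 and 68.2 FPKM) and Tpm1. Cnn1 passed the filter on low values through the knockout library alone, and Egr1 through the WT library alone. The remaining targets, Actg1, Vcl, Tln1, Myh9, Cnn2 (37.5 and 42.7 FPKM) and Srf, were within 2-fold.

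The CArG box was looked for, without mismatch and on both strands, in RefSeq windows (GRCm38.p6) from 250 bases before to 50 after each gene's start. Of the 63 members with a window 5 held a box, 7.94%, beside 1.81% of 27025 genes with a window, many of them not listed here. These were Actg1, Vcl, Myl6, Myo1e and Arpc4, which had log2 fold changes from -0.57 to -0.29. The Myl6 box belongs to a RefSeq start 1136 bases from the listed start of the gene. The Myl6 and Arpc4 stretches overlap annotated exons. The stretches upstream of the start that lie outside annotated exons are shown 5′ to 3′ on the gene's strand, with the box in capitals, for 3 members within 2-fold, since no member past 2-fold with a window held a box. This choice was made after the values were seen. A match to these letters is a description of the window and not a binding site.
Actg1: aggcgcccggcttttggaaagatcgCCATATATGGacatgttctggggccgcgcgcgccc
Vcl: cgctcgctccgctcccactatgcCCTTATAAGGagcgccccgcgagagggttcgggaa
Myo1e: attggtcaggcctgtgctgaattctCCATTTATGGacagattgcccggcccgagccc
The Actg1 stretch is chr11:120348551-120348610 on the - strand, with its box starting 90 bases before the RefSeq start. The Vcl stretch is chr14:20929148-20929205 on the + strand, with the box 227 bases before the start, and the Myo1e stretch chr9:70207293-70207349 on the + strand, with the box 32 bases before the start. Of the members 10 had no window, among them Actb, Actn3, Actr5, Actr8, Arpc5l, Coro1b, Diaph1 and Myo1d.

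Markers of other cells and of RNA quality also differed between the libraries. Smooth muscle and myofibroblast markers had 4 of 6 measured genes at least 2-fold higher in the knockout, beside 3.48% of all genes. Their summed level was 34.1 FPKM in WT against 736 FPKM in the knockout, of which Tagln and Acta2 held the most. Fibroblast markers had 3 of 8 higher and 1 lower, summed at 237 and 408 FPKM, with Col1a1 at 48.1 and 171 FPKM and Pdgfra at 29.3 and 5.9999 FPKM. Mesothelial markers summed to 18.3 and 6.03 FPKM, endothelial to 5.92 and 1.41 FPKM, neutrophil to 52.9 and 25.03 FPKM, lymphocyte to 9.78 and 11.8 FPKM and striated muscle to 19.0 and 30.2 FPKM. Of 7 striated muscle markers 3 were listed, and the sum is mostly Des (13.5 and 23.6 FPKM), which is also in the smooth muscle list. Of the others, Tnni2 was lower in the knockout (5.48 and 4.02 FPKM) and Acta1 higher (0.0615 and 2.56 FPKM). Of the 13 genes of the mitochondrial genome, 11 were at least 2-fold lower, beside 13.7% of all genes, with a summed level of 12075 and 7135 FPKM. Their part in the actin and myosin values was not tested. Across genes of these 2 libraries, which are not independent replicates, the Spearman coefficient of the fold change with gene length was -0.02 over 66 members and -0.02 over 8674 genes. The median log2 fold change of all genes did not move steadily with length. It was -0.18 at 204 to 2402 bases, -0.38 at 2403 to 3612 and -0.26 from 7297 up.

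The share of members at least 2-fold lower was 8.70% beside 8.17% of all genes with the median of ratios set to 1, and 23.2% beside 13.4% with the level trend removed. Flna, Coro1a, Actb, Myo1f and Pfn1 were at least 2-fold lower under all 10 settings run for single genes.

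**Figure D4:**
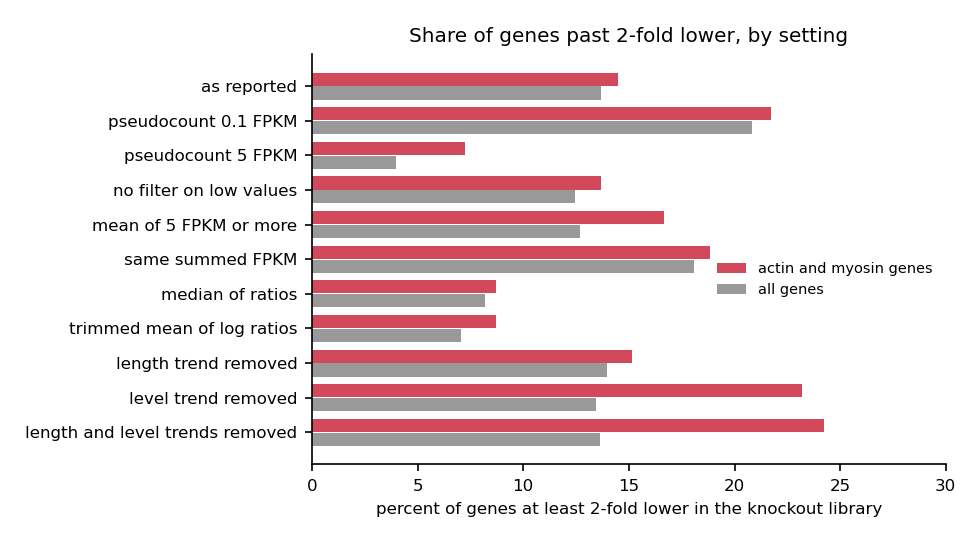
Percent of genes lower by 2-fold or more in the knockout (horizontal axis, from 0) under each setting, for the actin and myosin genes (red bars) and all genes (grey bars). The bars of a pair lie close together as reported (14.5% and 13.7%) and furthest apart once the trend with expression level is removed, alone (23.2% and 13.4%) or with that of length.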

How the data were processed

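RNA of 1 WT and 1 Trem2 knockout macrophage library, both with TGF-β1 for 24 h, was, per the labels' protocols, made into dUTP libraries and sequenced by Illumina chemistry. The authors deposited FPKM per gene on mm10, per the submitters' processing notes and the file headers. For the aligner, counter and annotation nothing is stated in the labels. Listed genes reach 0.501 FPKM or more in at least 1 library, and the table holds no counts.

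Fold changes are log2((knockout FPKM + 1)/(WT FPKM + 1)), which understates changes of low genes, over genes that averaged at least 1 FPKM. With 1 library per group no test was run, and 2-fold was the bound for a count. Library depth was estimated from the steps between low FPKM values and 300 bases per fragment, with lengths from GENCODE M21 for 64 members and from decimals for 6. The members at a mean of 10 FPKM or more rest on at least 569 estimated WT and 319 knockout fragments. The other 3, Coro1b, Actr1a and Myl12b, have no interval. Of the members, 10 share exon sequence on the same strand with another annotated gene, among them Coro1b with Ptprcap, Arpc4 with Ttll3, and Myl12a with an entry named Myl12b, so their values are uncertain.

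Values are given for members at a mean of 10 FPKM or more or past 2-fold, intervals for the 8 lowest and 8 highest at 10 FPKM or more and for a few others chosen after their values were seen, and up to 4 genes of each regulator list by size. The members and lists were chosen with earlier results of these data known. The pairs, the blood-cell lists and the 50 FPKM bound were chosen after seeing the data. Alternatives were pseudocounts of 0.1 and 5 FPKM, filters, scalings, trend removal (lowess span 0.3) and fold thresholds. Python 3.11.15, pandas 2.3.3, scipy 1.17.1 and statsmodels 0.14.6 were used, and the calculations were tested on simulated data. Some items of the set are not reported here.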

Additional observations from a re-analysis of the deposited data

How the results depend on the processing

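No paired analysis was possible because there is a single library per genotype, and no replicate could be left out. The count of members at least 2-fold lower, 10 as reported, was 15 with a pseudocount of 0.1 FPKM, 13 with the summed FPKM made equal, 5 with a pseudocount of 5 FPKM, 6 with the median of ratios, 6 with the trimmed mean of log ratios, 16 with the level trend removed, and 16 with the length and level trends removed together, a setting chosen after seeing the data. It was 25 at a 1.5-fold threshold and 0 at 4-fold. The count at least 2-fold higher, 0 as reported, was 1 with the median of ratios, 2 with the trimmed mean and 2 at 1.5-fold. The members' median of -0.35 was -0.0759 with the median of ratios and -0.0065 with the trimmed mean, which multiply the knockout values by 1.25 and 1.32, and -0.56 with the level trend removed. Minus the median of all genes it was -0.05 as reported, from -0.03 to -0.25 over the settings, with -0.12 at a pseudocount of 5 FPKM, -0.13 at a mean of 5 FPKM and -0.25 with the level trend removed. Of the 39 named members within 2-fold, 21 had the same sign under every setting and 18 did not, Dstn, Tmsb10, Tmsb4x and Capzb among them. The ratios within pairs do not depend on the scaling. Depth limits the low genes most, as Actn3 rests on about 3 knockout fragments, and biological spread was not measured.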
